A study of Mus musculus with 6 samples.

Results

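The cardiac myosin chains and the kinases that phosphorylate their light chains were followed across 6 adult mouse hearts. The set holds 10 genes: the heavy chains Myh6, Myh7 and Myh7b, the light chains Myl2, Myl3, Myl4 and Myl7, and the light chain kinases Mylk, Mylk3 and Mylk4. Its members are all probe sets (groups of array probes for 1 transcript) whose only annotated symbol is 1 of these genes, which gave 16 of the 45101 probe sets on the array (18193 genes have a symbol of their own there). A further 2 probe sets are annotated to Myh6 and Myh7 together and are described separately. All 16 passed the filter on dim signals.

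The tissue was the heart apex of 6 male mice, 6 to 7 weeks old, and each heart was hybridised to its own Affymetrix array. All of the mice were Fog2flox/delta: 1 allele of Fog2 (official symbol Zfpm2), which encodes a partner protein of the GATA factors, was floxed and the other already deleted. In 3 mice an alpha MHC Cre transgene (MHCaCre), driven by the Myh6 promoter, made Cre recombinase in heart muscle cells. The remaining 3 mice had no Cre and were not wild type, since they too carried the deleted allele. Hearts with Cre and unmodified Fog2 were not analysed here, so Cre itself and the loss of Fog2 cannot be told apart. Values are log2 signals, and a difference is the mean of hearts with Cre minus the mean of hearts without Cre.

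In the muscle cells of the heart, each myosin motor has heavy chains that hydrolyse ATP and pull on actin, and light chains that stiffen the lever arm. Each heavy chain binds an essential and a regulatory light chain. Myh6 (α-myosin heavy chain, fast) is the main heavy chain of the adult mouse ventricle, and Myh7 (β-myosin heavy chain, slow) that of the fetal ventricle, which is known to return in the stressed heart. Ventricles use Myl2 as regulatory and Myl3 as essential light chain, whereas atria and the fetal heart use Myl7 and Myl4. Phosphorylation of the regulatory light chain by a kinase of the Mylk family adjusts the force of contraction.

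Across the whole array, 1412 of 27022 tested probe sets differed between the groups (limma with Benjamini-Hochberg adjustment, adjusted p under 0.05), which is 5.23%. The count was 913, 923, 600 and 905 without no_Cre 1, aMHC_Cre 1, aMHC_Cre 2 and aMHC_Cre 3, in that order, and 275 (0.611%) without a filter on dim probe sets. Array medians were 5.71 to 5.81 and array maxima 13.97 to 14.00. The targeted gene had 2 probe sets that moved in opposite directions: Zfpm2 read 6.34, 6.40 and 6.65 without Cre, against 5.46, 5.61 and 5.65 with Cre on 1 of them, and 8.86, 8.83 and 8.95 against 10.71, 10.48 and 10.50 on the other. The sources used here do not say which exons these probe sets cover, and neither was taken as a check of the deletion. General cardiomyocyte markers such as Tnnt2, Tnni3 and Actc1 were near the top of the scale in every heart: their list mean was 13.35 to 13.38 without Cre and 13.36 to 13.41 with Cre, and 0 of 10 passed in limma (also 0 at an unadjusted p under 0.05). Of 9 fibroblast markers 6 rose (0 without a filter), with a median of 0.74 and list means of 9.64 to 9.80 without Cre and 10.39 to 10.75 with Cre; their part in the results below was not tested. In whole tissue, a change in the number of cells of a type and a change in RNA per cell cannot be told apart.

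Among the myosin chains and kinases, 3 genes changed, each read by 1 probe set of its own. Of the 16 probe sets 2 rose (Myl7 and Myh7), beside 3.43% of all tested probe sets, 1 fell (Mylk4), beside 1.79%, and 13 did not pass. Counted as genes through the brightest probe set, 3 of 10 changed, beside 6.24% of all 13062 tested genes. Of these 2 rose, beside 4.2%, and 1 fell, beside 2.04%. The members were not picked at random, and several were already known to differ in these hearts. The 13 probe sets that did not pass differed by -0.37 to 0.14, with a median of -0.02; the median of all tested genes was -0.01. Myl7 and Myh7 passed in all 15 alternative analyses run on probe sets, and Mylk4 in 14.

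**Figure D1:**
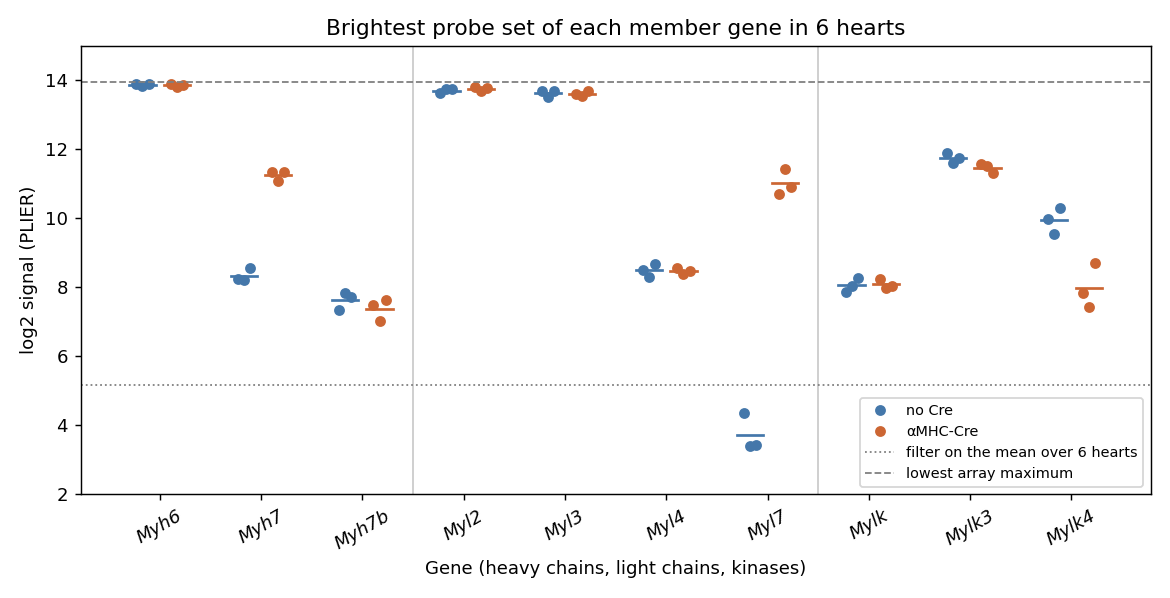
Log2 signal (y axis) of the brightest probe set of each of the 10 genes (x axis) in 3 hearts without Cre (blue) and 3 hearts with αMHC-Cre (orange); points are hearts, bars are group means, the dotted line is the filter on the mean over 6 hearts and the dashed line the lowest array maximum. Myl7 and Myh7 are higher and Mylk4 is lower in every heart with Cre, while Myh6, Myl2 and Myl3 lie just under the array maximum in both groups.

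The regions before the start sites of the 3 genes that changed are shown here because the deleted cofactor acts through GATA factors. They were taken from RefSeq (GRCm38.p6) as the 250 bases before a listed start, 5′ to 3′ on the strand of the gene, with motif matches in capitals. Myl7 lies at chr11:5898783-5899032, Myh7 at chr14:54994627-54994876 and Mylk4 at chr13:32783965-32784214, all on the minus strand. For Myh7 the more upstream of 2 listed starts is given.
Myl7: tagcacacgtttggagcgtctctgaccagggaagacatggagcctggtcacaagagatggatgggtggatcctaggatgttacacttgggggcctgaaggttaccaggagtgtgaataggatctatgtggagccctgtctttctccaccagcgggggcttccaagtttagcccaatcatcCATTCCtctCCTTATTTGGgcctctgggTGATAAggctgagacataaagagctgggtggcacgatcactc
Myh7: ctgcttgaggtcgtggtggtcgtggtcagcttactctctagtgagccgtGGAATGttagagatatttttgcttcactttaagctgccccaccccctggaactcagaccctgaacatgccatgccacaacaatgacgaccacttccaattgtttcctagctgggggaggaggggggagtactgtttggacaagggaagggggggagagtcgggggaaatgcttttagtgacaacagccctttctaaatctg
Mylk4: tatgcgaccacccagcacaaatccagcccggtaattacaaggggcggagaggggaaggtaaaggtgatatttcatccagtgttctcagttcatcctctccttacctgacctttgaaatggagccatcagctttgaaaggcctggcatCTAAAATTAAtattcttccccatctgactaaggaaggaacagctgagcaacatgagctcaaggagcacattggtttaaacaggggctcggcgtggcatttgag

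Motifs were searched on both strands: the GATA motif (AGATAA and its variants that begin with T, end with G, or both), the M-CAT element (CATTCC), the CArG box bound by serum response factor, and the MEF2 motif. No match overlapped another in the windows shown. In Myl7 the capitals mark, from left to right, an M-CAT element, a CArG box and a GATA motif, which begin -70, -61 and -42 bases from the start. In Myh7 they mark an M-CAT element, and in Mylk4 a MEF2 motif. The window of the other listed Myh7 start (chr14:54994550-54994799) holds 0 matches to any of these motifs. Of 32851 windows of this length, 26.5% hold the GATA motif, 12.6% M-CAT, 1.47% the CArG box and 1.69% the MEF2 motif. The GATA motif was in 6 of the 13 listed windows of the members. These belong to 5 genes: Myl7, and also Myh6, Myh7b, Myl2 and Mylk3, whose probe sets did not pass. A match is a description of these letters and not a site of binding.

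Among the heavy chains, Myh7 rose and the 2 others did not pass. Myh7, the slow β-chain, gave signals of 8.24, 8.21 and 8.56 without Cre, against 11.36, 11.09 and 11.35 with it. Every heart with Cre was above every heart without it. Groups that do not overlap were found for 23.5% of all tested probe sets. The difference was 2.93 ± 0.14 (SE, limma adjusted p = 1.9e-05), or 7.61-fold, and only 0.104% of tested probe sets rose by more. It stayed between 2.87 and 3.04 with any heart left out.

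Myh6, the fast α-chain whose promoter drives the Cre transgene, read 13.90, 13.83 and 13.90 without Cre, against 13.89, 13.81 and 13.87 with Cre. The groups overlapped, with a difference of -0.02 (95% interval of the limma fit -0.26 to 0.22). This probe set was the second brightest on all 6 arrays, close to the array maximum. The other Myh6 probe set was dimmer, with room in both directions. It read 11.25, 10.81 and 11.47 without Cre, against 10.99, 10.84 and 10.60 with Cre, a difference of -0.37 (interval -0.78 to 0.05, limma adjusted p = 0.35). The groups overlapped here too, since no_Cre 2 lay among the hearts with Cre.

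The 2 probe sets annotated to both Myh6 and Myh7 were not higher with Cre. The part of each gene in their signal was not measured, so they do not show whether Myh7 rose. The brighter one read between 13.48 and 13.53 in all 6 hearts, a difference of -0.02, but at ranks 24 to 26 from the top of the arrays it was itself near the maximum. The dimmer one read 11.50, 11.17 and 11.63 without Cre, against 11.39, 11.09 and 10.80 with Cre, a difference of -0.34 (limma adjusted p = 0.37). The increase of Myh7 thus rests on a single probe set, the only one annotated to Myh7 alone.

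Myh7b, an ancient relative of the cardiac heavy chains, read 7.34, 7.82 and 7.71 without Cre, against 7.50, 7.03 and 7.62 with Cre. Its values were interleaved between groups, with a difference of -0.24 (interval -0.66 to 0.18, limma adjusted p = 0.58).

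Each of the 3 heavy chain genes is known as the host of a microRNA, and these microRNAs are known to act on muscle myosin genes. They are printed with the seed (bases 2 to 8) in capitals, from RefSeq (GRCm38.p6), to show which of them share a host with the gene that rose. miR-208a lies in Myh6 (chr14:54949072-54949093, minus strand), miR-208b in Myh7 (chr14:54975710-54975731, minus strand) and miR-499 in Myh7b (chr2:155622893-155622913, plus strand).
mmu-miR-208a-3p: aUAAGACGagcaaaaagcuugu
mmu-miR-208b-3p: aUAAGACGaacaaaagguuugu
mmu-miR-499-5p: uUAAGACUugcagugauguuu
The seed UAAGACG is shared by miR-208a and miR-208b, whose 22 bases differ at 3 positions, and the seed of miR-499 is UAAGACU. The array values describe the host transcripts, and the microRNAs were not measured here.

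Of the 4 light chain genes 1 changed. Myl7, the regulatory light chain of atria, gave signals of 4.34, 3.39 and 3.42 without Cre, against 10.72, 11.42 and 10.92 with it. Every heart with Cre was above every heart without Cre by more than 6 log2 units. The difference was 7.30 ± 0.27 (SE, limma adjusted p = 6.4e-06). Only 0.0074% of tested probe sets rose by more. Without Cre the signal lay below the level (5.16) used as a filter on the mean of all hearts, so this probe set passed the filter through the hearts with Cre, and its size depends on how dim signals are treated. Adding 16 to the unlogged signal gave a difference of 6.15, and adding 64 gave 4.78. In the fit without a filter the adjusted p was 0.0083.

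Myl4, the essential light chain of atria that partners Myl7 there, read 8.50, 8.30 and 8.68 without Cre, against 8.56, 8.39 and 8.47 with Cre. The hearts with Cre lay inside the range of those without. The difference was -0.02, and the 95% interval of -0.32 to 0.28 does not reach the difference measured for Myl7. A dimmer probe set of Myl4 read 5.29, 5.87 and 5.77 against 5.49, 5.48 and 5.49, a difference of -0.16 (limma adjusted p = 0.68), with overlapping groups.

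The ventricular light chains were at the top of the scale. Myl2, the regulatory chain, read 13.64, 13.75 and 13.74 without Cre, against 13.82, 13.69 and 13.78 with Cre, a difference of 0.06 (interval -0.19 to 0.31). Myl3, the essential chain, had 3 probe sets, which differed by -0.01, -0.04 and -0.12; their intervals reached from -0.38 at the lowest to 0.24 at the highest. The brightest of them read 13.68, 13.53 and 13.69 without Cre, against 13.62, 13.55 and 13.68 with Cre. Myl2 ranked between 3 and 15 from the top of each array and the Myl3 probe sets between 9 and 112, and compressed differences cannot be told apart from absent ones at that height.

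**Figure D2:**
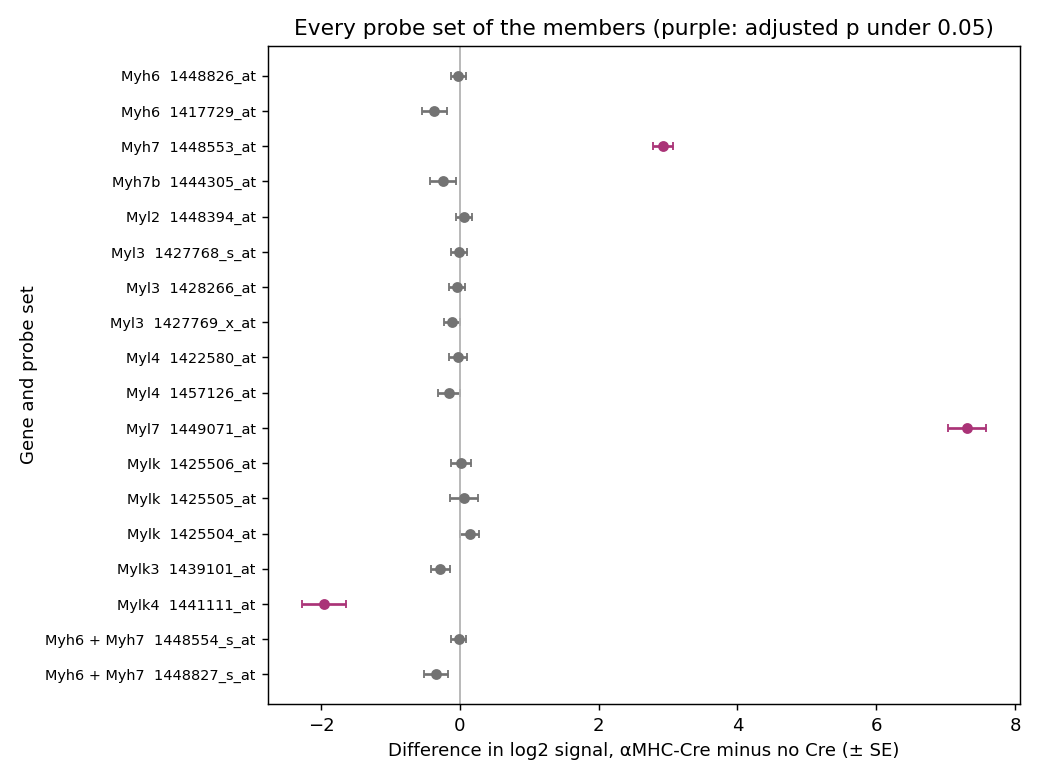
Difference in log2 signal, αMHC-Cre minus no Cre, with its SE from limma (x axis), for the 16 probe sets of the members and the 2 probe sets shared by Myh6 and Myh7 (y axis; 3 hearts per group). The purple points of Myh7, Myl7 and Mylk4 passed at an adjusted p under 0.05; the grey ones did not and lie between -0.37 and 0.14.

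Among the kinases, Mylk4 fell and the 2 others did not pass. Mylk4, a further member of the kinase family, read 9.996, 9.53 and 10.31 without Cre, against 7.83, 7.43 and 8.72 with Cre. The groups did not overlap, and aMHC_Cre 3 was the highest of the hearts with Cre. The difference was -1.95 ± 0.31 (SE, limma adjusted p = 0.0082), or 3.88-fold lower, and 99.95% of tested probe sets had a higher difference. It was -2.32 without aMHC_Cre 3 and -1.67 without aMHC_Cre 2, and it passed in both cases. Without a filter on dim probe sets it did not pass (adjusted p = 0.13).

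Mylk3, the cardiac kinase of the regulatory light chain, read 11.89, 11.61 and 11.76 without Cre, against 11.59, 11.51 and 11.31 with Cre. The groups did not overlap, although the highest heart with Cre lay just under the lowest without it. Separate groups in this direction were found for 12.1% of tested probe sets. The difference was -0.28 (interval -0.58 to 0.02, limma adjusted p = 0.31) and did not pass.

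Mylk, the kinase of smooth muscle and non-muscle cells, had 3 probe sets, which differed by 0.02, 0.06 and 0.14 with adjusted p of 0.67 to 0.96 in limma. On the brightest, the hearts without Cre read 7.86, 8.05 and 8.28 and those with Cre 8.24, 7.99 and 8.04. The groups overlapped on all 3 probe sets.

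The shift of each isoform against its partner was compared within hearts, as log2 of the first gene minus log2 of the second. Only the change of this value between groups is read, since levels of different probe sets are not comparable. Myl2, Myl3 and Myh6 were near the array maximum in both groups, so shifts against them follow the other gene and add little to its own difference. For the regulatory light chains, Myl7 minus Myl2 went from -9.99 ± 0.60 (SD, n = 3) to -2.74 ± 0.43, a shift of 7.25. This size is not exact, because Myl7 without Cre lay below the filter level and Myl2 near the array maximum: with 16 added to the unlogged signal the shift was 6.09, and with 64 added 4.73. For the essential light chains, Myl4 minus Myl3 went from -5.14 ± 0.12 to -5.15 ± 0.08, a shift of -0.0075, with overlapping hearts. For the fetal against the adult heavy chain, Myh7 minus Myh6 rose from -5.54 ± 0.16 to -2.59 ± 0.11, a shift of 2.95. For the kinases, Mylk4 minus Mylk3 fell from -1.80 ± 0.32 to -3.48 ± 0.79, a shift of -1.67. In two-sided exact permutation tests the pairs whose groups separated each gave p = 0.1, the smallest that 3 hearts against 3 allow, and Myl4 minus Myl3 gave p = 1 (0.13 and 1 after adjustment over the 4 pairs).

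**Figure D3:**
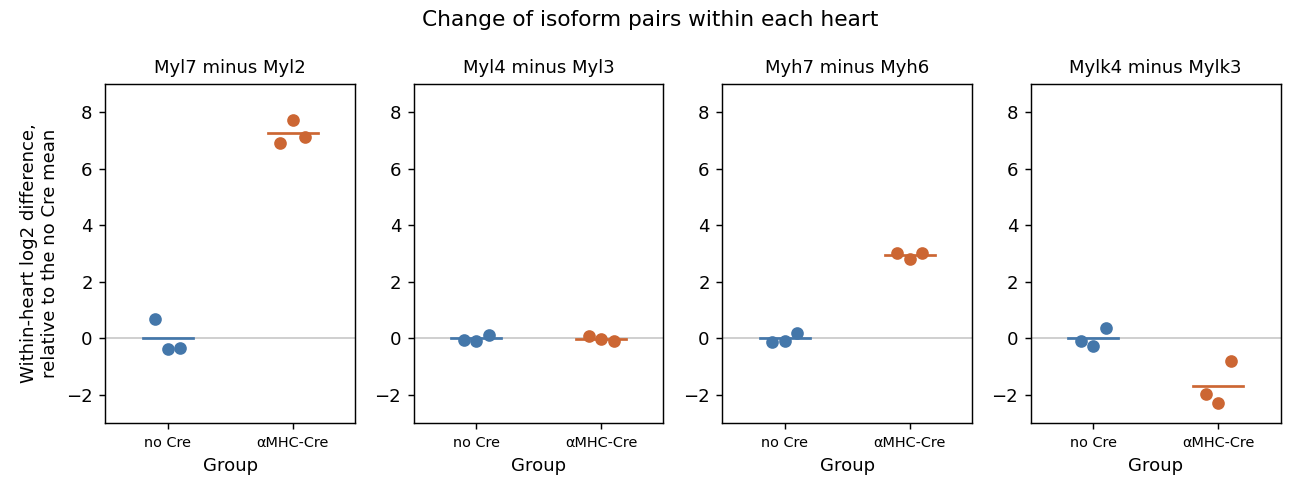
Within-heart log2 difference of 4 gene pairs, set relative to the mean of the hearts without Cre (y axis), by group (x axis); points are hearts and bars group means, with n = 3. The shifts are 7.25 for Myl7 minus Myl2, -0.0075 for Myl4 minus Myl3, 2.95 for Myh7 minus Myh6 and -1.67 for Mylk4 minus Mylk3.

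Other genes of atrial muscle were read beside Myl7, since atrial tissue in the sample would carry them. Of 15 atrial markers 11 were tested, with a median difference of 0.10. In limma 2 rose and 0 fell (at an unadjusted p under 0.05, 2 and 2). By adjusted p, 4.2% of all tested genes rose and 2.04% fell. The share of all genes at the unadjusted cut is not given here. Unadjusted counts of this and the other lists are therefore not read as results about a list. Nppa, which encodes atrial natriuretic peptide and also rises in stressed ventricles, read 12.07, 11.54 and 11.40 without Cre, against 13.72, 13.68 and 13.69 with Cre (2.03 ± 0.17 SE, limma adjusted p = 0.00032), where it lay just below the array maxima. Kcnj5, which forms the potassium channel opened by acetylcholine together with Kcnj3, rose by 1.11 ± 0.13. These 2 genes were known to differ when the list was made. The mean of the list was 8.43 to 8.55 without Cre and 8.71 to 8.98 with Cre.

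The other 4 atrial markers were too dim to be tested. Sln, sarcolipin, a regulator of the calcium pump of atrial muscle, read 2.57, 2.94 and 3.05 without Cre, against 4.01, 2.93 and 2.89 with Cre. Bmp10, an atrial growth factor, read 5.09 to 5.74 without Cre and 4.24 to 5.16 with Cre. Gja5, the atrial connexin, lay between -9.36 and 2.84 in all hearts, at the bottom of the scale. Dkk3, a secreted protein of the Dickkopf family, read 4.16, 4.08 and 4.20 against 5.85, 5.79 and 5.80 and passed in the fit without a filter (adjusted p = 0.0083). Other atrial genes that did not pass included Kcnj3 (0.27, limma adjusted p = 0.53), Myl1 (0.49, 0.33) and the transcription factor Tbx5 (-0.49, 0.058). Stard10 (-0.31, 0.21), Nr2f1 (-0.11, 0.78), Nr2f2 (0.06, 0.88), Pam (0.10, 0.88) and Kcna5 (0.09, 0.95) did not pass either. Mybphl, a myosin-binding protein of atria, read 7.00, 7.12 and 6.66 without Cre, against 7.05, 8.66 and 7.09 with Cre (adjusted p = 0.41). The high value is that of aMHC_Cre 2 alone, and the other hearts with Cre lay within the range of those without. The part of atrial cells in the signal of Myl7 was not tested.

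Of 11 ventricular markers 10 were tested, 2 rose and 1 fell, with a median of -0.12. Mpped2 rose by 0.78 ± 0.13 (SE, limma adjusted p = 0.0089), and Hey2, a Notch-responsive repressor of ventricular muscle, by 0.75 ± 0.16 (0.032). Kcnd2, a transient outward potassium channel, fell by 0.77 ± 0.15 (0.020). Each of these 3 calls was lost with at least 1 heart left out: Mpped2 lost its call without aMHC_Cre 2 (0.052), Kcnd2 without aMHC_Cre 2 or any heart without Cre (0.050 to 0.066), and Hey2 without every heart except no_Cre 2 (0.062 to 0.14). A dimmer probe set of Mpped2 differed by 0.77 (limma adjusted p = 0.0088). The dimmer probe sets of Kcnd2 differed by -0.78 and -0.64 (0.033 and 0.026). These dimmer probe sets did not pass without a filter (0.084 for Mpped2, 0.20 and 0.15 for Kcnd2). Irx4, a ventricular transcription factor, differed by 0.08 (adjusted p = 0.85).

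Among the other myosin light chains, Myl9 stood out. Of 9 listed, 7 were tested and 1 rose, with a median of 0.25. Myl9, the regulatory light chain of smooth muscle, read 8.04, 7.99 and 8.70 without Cre, against 10.93, 11.43 and 11.72 with Cre, with a gap of more than 2 log2 units between groups. It rose by 3.12 ± 0.24 (SE, limma adjusted p = 0.00021) and stayed between 2.94 and 3.34 with any heart left out. The other 6 tested light chains differed by -0.02 to 0.49 and did not pass. Smooth muscle markers were read beside it: of 8 tested, 0 rose and 1 fell in limma (2 and 1 at an unadjusted p under 0.05), with a median of 0.10. Myh11, the smooth muscle heavy chain, differed by 0.01 and Tagln, transgelin, by 0.04. Smtn and Actg2 each differed by 0.47 (limma adjusted p = 0.12 and 0.38), Des by 0.16 and Myocd by -0.10. Acta2 differed by 0.80 ± 0.30 (adjusted p = 0.20), and Synpo2, an actin-bundling protein also found in heart, fell by 1.06 ± 0.13 (0.0027, and 0.053 without a filter). The dimmer probe sets of Synpo2 differed by -0.96 and -0.90 (limma adjusted p = 0.0020 and 0.018). Without a filter their adjusted p was 0.037 and 0.15. The mean of this list was 8.80 to 9.24 without Cre and 8.89 to 9.26 with Cre.

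Genes that act on the myosin filament were also read. By adjusted p, 6.24% of all tested genes changed, and counts near this share are not read as results about these genes. Of 14 tested thick filament and chaperone genes 1 rose, Mybpc2, the fast skeletal myosin-binding protein C, from 6.35 ± 0.67 (SD, n = 3) to 9.17 ± 0.29 (limma adjusted p = 0.00100; 0.056 without a filter). At an unadjusted p under 0.05, 2 genes of this list were higher and 2 lower. In other analyses 0 to 3 of its genes rose and 0 to 2 fell. The cardiac form Mybpc3 differed by 0.27 (0.29) and titin, Ttn, by -0.01. The median of this list was 0.03. Of 13 tested genes of light chain phosphorylation, which include phosphatase subunits, 0 passed in limma (3 higher and 0 lower at an unadjusted p under 0.05), with a median of 0.08. Closest were the kinase Dapk2 at 0.46 (adjusted p = 0.068) and Ppp1r12a, the targeting subunit of myosin phosphatase, at 0.45 (0.074). The 3 dimmer probe sets of Ppp1r12a were also higher in every heart with Cre. Groups that do not overlap were found for 23.5% of all tested probe sets. In limma 1 of the 3 passed (0.61, adjusted p = 0.045), but not without a filter (0.20). The others did not pass (0.35 and 0.47). Up to 2 of these 13 passed in other analyses.

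**Figure D4:**
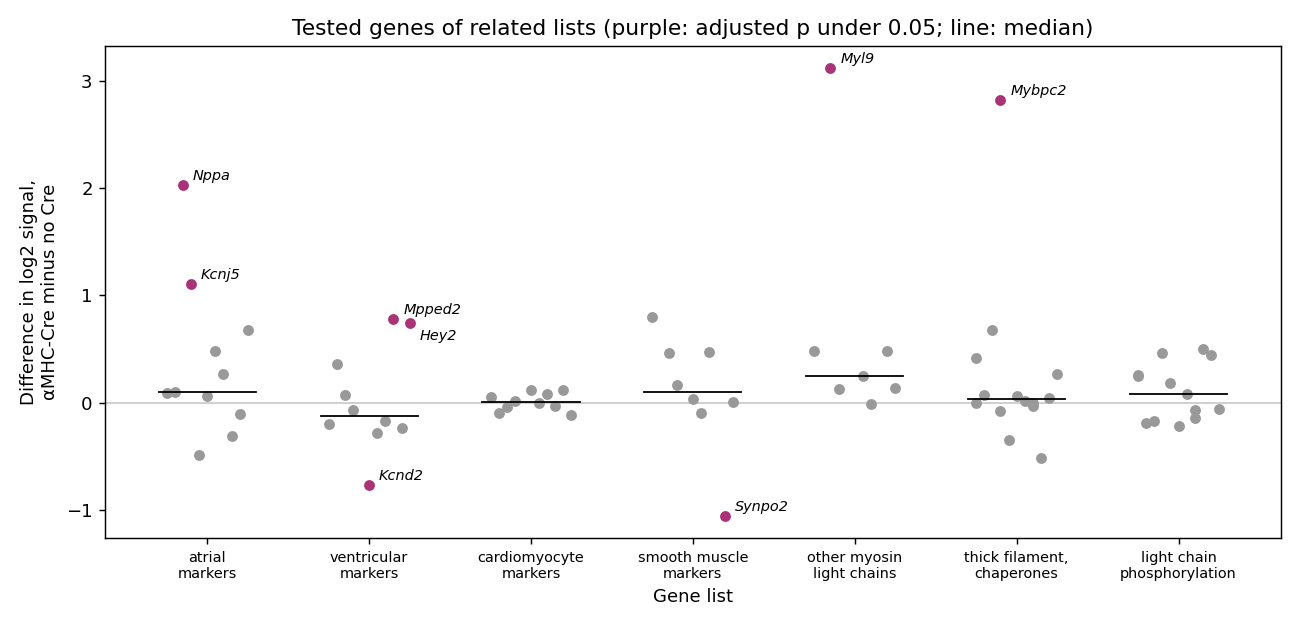
Difference in log2 signal, αMHC-Cre minus no Cre (y axis), for each tested gene of 7 lists (x axis), each gene through its brightest probe set; purple points passed at an adjusted p under 0.05 and lines are medians. Myl9 at 3.12 and Mybpc2 at 2.82 stand above their lists, and cardiomyocyte markers lie between -0.11 and 0.12.

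The genes whose course over the 6 hearts was nearest to that of a changed member were found by the distance between profiles, after subtracting each gene's mean without Cre. Nearest to Myh7 were Arpp21, a phosphoprotein better known from brain, at a distance of 0.46, the small GTPase Rab31 at 0.47 and Myl9 at 0.78. Rab31 read 7.97, 7.69 and 7.92 without Cre, against 10.52, 10.55 and 10.74 with Cre. Nearest to Myl7 was the protease inhibitor Spink4 at 1.37, which read 5.44, 4.10 and 3.14 against 12.03, 11.84 and 11.87. The next ones, Plppr5 at 3.47 and Aqp6 at 4.42, rose by 5.32 and 4.89 and so by less than Myl7. Nearest to Mylk4 were Kcnip2, a subunit of the transient outward channel, at 0.69, the growth factor Fgf9 at 1.01 and the receptor Lgr6 at 1.01. Kcnip2 read 10.80, 10.89 and 10.94 without Cre, against 8.46, 8.51 and 9.36 with Cre, with aMHC_Cre 3 the highest of its group as for Mylk4. Without Cre the means of Spink4, Plppr5, Aqp6 and Arpp21 lay below the filter level (5.16), as for Myl7. These genes passed the filter through the hearts with Cre, and their differences and distances depend on how dim signals are treated. All distances were chosen for likeness and carry no test.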

How the data were processed

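RNA was isolated by Trizol followed by RNeasy (labels' protocols) from 6 hearts, 1 array each. The deposited values are log2 signals per probe set from PLIER, per the submitters' processing notes; base 2 is inferred from the maxima, and its settings and normalization are not stated in the sources used here. Titles call the hearts biological replicates. The 64 control probe sets were removed, then the 40% (18015) dimmest by mean over 6 arrays. The test was limma (version 3.58.1, R 4.3.3; lmFit, eBayes, two-sided, no covariate), with Benjamini-Hochberg adjustment over 27022 probe sets and a threshold of 0.05. The number of arrays limits the precision. A gene is its brightest probe set. Annotation gave 34945 probe sets 1 symbol, 932 several and 9160 none; all 16 member probe sets matched RefSeq by Entrez number. Isoform pairs used exact permutation tests. The limma step was tested on 20 simulated data sets of 27022 probe sets with 200 changed. A first version of this simulation, which gave each probe set its moderated variance, failed its limit on false calls; over 20 draws it gave 7.23% false calls on average (3.03 to 10.7%), above the nominal 5%. Variances were then drawn from the fitted prior instead, which gave 4.71% (2.27 to 8.63%), with 78.4% of changes of 1 log2 unit and 99.3% of 2 log2 units recovered. That change was made after the failure was seen, and the analysis of the hearts was left as it was, so calls near the threshold may include more false ones than nominal. Members and 16 gene lists were chosen with earlier results of these data known. Other named genes are the lists' best 4 past the threshold (or 2 if none passed) and the 3 nearest patterns. The few beyond this were picked after their values were seen. They are Myh11, Tagln, Acta2, Smtn, Actg2, Des, Myocd, Irx4, Mybpc3, Ttn, untested atrial markers and other atrial genes. Tnnt2, Tnni3, Actc1, Myh9, Myh14 and Myh3 were also named beyond this rule. Alternatives were other filters, normalizations, variance settings, offsets, array weights, a replicate block, mean probe sets and leaving out each heart.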

Additional observations from a re-analysis of the deposited data

How the results depend on the processing

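Myl7 (4.78 to 7.62) and Myh7 (2.70 to 3.04) kept direction and call in 15 of 15 alternatives, so 2 member probe sets rose in each; Mylk4 (-2.32 to -1.67) kept its call in 14, with 0 member probe sets lower without a filter (limma adjusted p 0.13), and lay at 0.05 with trend and robust variance. The total of probe sets called was 275 without a filter and 600 to 1075 with 1 heart left out. Without a filter more probe sets are tested, and the SE from limma changed too (for Mylk4 from 0.31 to 0.39). Pairing by replicate number was not evident (correlations of same-numbered deviations -0.06, 0.21 and -0.19), but so few values cannot exclude it. With the replicate block 909 probe sets were called, and Myl7, Myh7 and Mylk4 all passed. Members that never passed changed sign with 1 heart left out: the brightest probe sets of Myh6 (-0.046 to 0.0022), Myl3 (-0.067 to 0.018), Myl4 (-0.12 to 0.071) and Mylk (-0.082 to 0.13), the second of Myl3 (-0.080 to 0.017) and of Mylk (-0.081 to 0.26), and Myl4 minus Myl3 (-0.051 to 0.059). The brighter probe set shared by Myh6 and Myh7 was at 0.0098 with quantile normalization. Of the atrial markers 1 was lower with the 60% filter, median centring, trend and robust variance, and 16 or 64 added. Ventricular markers higher numbered 0 without a filter, 1 with quantile normalization and 0 to 2 with a heart left out, and those lower 0 without a filter and 0 to 1 with a heart left out. For these changes the cause was not tested. Signals near the array maxima limit what can be said of Myh6, Myl2, Myl3 and the brighter shared probe set.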

Other observations

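Myosin heavy chains outside the cardiac set were also read, beside 6.24% of all tested genes that changed. Of the 3 non-muscle heavy chains, Myh10 (non-muscle myosin IIB) gave 8.46, 8.23 and 8.35 without Cre against 9.16, 8.89 and 9.26 with it, a rise of 0.76 ± 0.13 (SE, limma adjusted p = 0.013) that was lost without aMHC_Cre 1 (0.052), without aMHC_Cre 3 (0.050) and without a filter (0.11). Myh9 differed by 0.21 and Myh14 by -0.36 without passing. Of 3 tested other muscle heavy chains 0 passed in limma (0 higher and 1 lower at an unadjusted p under 0.05): the fast skeletal Myh2 differed by -0.48 (adjusted p = 0.18) and Myh8, the perinatal skeletal chain, by -0.10, and the embryonic chain Myh3 was below the filter at 4.54 without Cre and 4.23 with Cre. Of 4 tested skeletal muscle markers 0 passed (1 higher and 2 lower unadjusted), with Myh2 and Mylpf (0.48, adjusted p = 0.21) closest.

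Of 5 tested conduction system genes 0 passed (1 higher and 1 lower unadjusted), with Gjc1 at 0.37 (limma adjusted p = 0.12) and Cacna1g at -0.53 (0.22). Of 8 endothelial markers Vwf, von Willebrand factor, rose by 1.12 ± 0.17 (SE, adjusted p = 0.0066; 0.098 without a filter), and the list median was 0.12. Among fibroblast markers the 4 with the lowest adjusted p were Col1a2 (1.28), Postn (1.36), Col1a1 (1.41) and Lum (0.74), and their calls were kept whichever heart was left out but lost without a filter (0.051 to 0.11).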
